A study of Homo sapiens with 18 samples.

Results

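The genes described here are 36 interferon-stimulated genes, a set of antiviral effectors, RNA sensors and transcription factors whose transcription rises when a cell receives interferon. They were taken by symbol from a list, and all 36 were found among the 57905 Ensembl genes of the count tables, with DDX58 matched through its current symbol RIGI. The study sequenced RNA of BE(2)-m17, a human neuroblastoma cell line, in 3 experiments that the labels number RNA1, RNA2 and RNA3. In each experiment 3 libraries came from ABCC1-overexpressing cells and 3 from empty vector control cells, 18 libraries in all. Both lines of every experiment carried the transposable vector pSBbi-Hyg-APP, which encodes human reference APP, and both were selected with drugs. The empty vector control cells, labelled Puro, also carried pSBbi-Pur with no insert, and the ABCC1 cells carried pSBbi-Pur with codon-optimized human reference ABCC1, a membrane transporter. The protocols name no interferon treatment, so the levels are those of resting, stably transfected cells, and each comparison is of 1 drug-selected line with another. For every sample 14000000 cells were plated and RNA was taken on day 4. The study describes weekly platings, and the p-values below measure the spread between such cultures. It also describes one repeat with cryopreserved cells and another with newly transfected cells, and the labels do not say which is which. Only 1 of these repeats is thus described as a new transfection. A fit of all 18 libraries therefore measures the spread between cultures, not between 3 separately made pairs of lines.

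Interferons of the alpha and beta kind bind the receptor chains IFNAR1 and IFNAR2, and the kinases TYK2 and JAK1 on these chains then phosphorylate STAT proteins. Phosphorylated STAT2 takes part with IRF9 in the factor ISGF3, which binds the interferon-stimulated response element (ISRE) in front of genes such as ISG15, MX1 and the IFIT and OAS families. Gamma interferon acts mainly at the gamma activated sequence (GAS), and IRF1 is a classic target of that route. Many of these genes are low in cells that have met neither virus nor interferon.

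The libraries held 8866994 to 57937653 assigned read pairs. Counts of the codon-optimized ABCC1 sequence were between 51035 and 594404 in the ABCC1 libraries and between 0 and 15 in the Puro libraries, so every library matched its label. Of the 11 neuroblastoma markers checked, such as CHGA and MYCN, all had reads in every library. The first experiment was prepared with an mRNA kit (the labels name 2 kits, and the one in the study's methods is TruSeq RNA v2) on another instrument than the later experiments, which used a total RNA kit. Reads on genes that should be silent differed strongly with it. The 350 olfactory receptor genes, taken as such a silent background, together averaged 0.00511 ± 0.000432 CPM (counts scaled to library size by TMM) per kb of exon (SD, n = 3) in the Puro libraries of the first experiment. In the second experiment the value was 0.580 ± 0.0881 and in the third 1.58 ± 0.0907. The ABCC1 libraries were lower in each, at 0.00411 ± 0.000318, 0.304 ± 0.149 and 1.26 ± 0.158. The leukocyte and endothelial marker genes had summed counts of 60 to 153 per library in the first experiment, 346 to 1128 in the second and 904 to 1204 in the third. Their summed level was lower with ABCC1 in both later experiments, for leukocyte markers at 21.0 and 12.3 CPM (Puro and ABCC1) in the second and at 57.1 and 41.4 in the third. In the first experiment it was the fibroblast markers that were higher with ABCC1, at 135.2 and 207.1 CPM summed, with all 4 markers tested called higher, and of the 11 neuroblastoma markers 3 were called higher and 6 lower. Their part in the results below was not tested. A low member in the later experiments is therefore read against the olfactory receptor genes, and a member is called above background where its mean level over the 6 libraries was over the 95th percentile of those genes. In these bulk samples, fewer cells expressing a gene and less of its RNA per cell cannot be told apart.

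The RefSeq promoter windows (build GRCh38.p14, 250 bases before to 50 bases after an annotated start) show what the members share in sequence. A window was found for 29 of the 36 members. The core of the ISRE, the letters GAAA, any 2 bases and GAAA, searched on both strands, was in at least 1 window of 19 of these 29 members (65.5%), against 1195 of all 27305 genes with a window (4.38%). The core of the GAS, the letters TTC, any 3 bases and GAA, which reads the same on both strands, was in 8 of the 29 (27.6%), against 9.38% of all genes. The matches describe letters only, and in ISG15, HERC5, BST2 and IFIH1 neighbouring ISRE cores overlap. Among the members whose RNA differed between the lines in at least 1 experiment, IFIT5, OAS3, RSAD2 and SAMD9 held the ISRE core. OAS1, IRF1 and IRF9 held the GAS core and no ISRE core, and STAT2 and UBE2L6 held neither. IFIT2 had no window. The stretches below, from 150 bases before the start to the start or to the end of a core that crosses it, show the ISRE core in capitals, as it reads on one strand or the other.

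IFIT5, with 3 cores close to the start (chr10:89414418-89414573, plus strand): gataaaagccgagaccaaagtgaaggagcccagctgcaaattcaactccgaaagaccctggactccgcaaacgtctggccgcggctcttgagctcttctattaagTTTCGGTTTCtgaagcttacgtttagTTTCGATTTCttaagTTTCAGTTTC
OAS3, with 2 cores (chr12:112938324-112938473, plus strand): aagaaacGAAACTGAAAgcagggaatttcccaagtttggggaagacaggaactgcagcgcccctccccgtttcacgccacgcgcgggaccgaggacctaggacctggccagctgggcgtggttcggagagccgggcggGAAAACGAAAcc
RSAD2, the window of its 2 that holds a core (chr2:6877627-6877776, plus strand): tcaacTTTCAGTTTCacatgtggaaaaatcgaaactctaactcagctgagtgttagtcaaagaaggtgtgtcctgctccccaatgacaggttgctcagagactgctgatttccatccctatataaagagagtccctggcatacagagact
SAMD9, with 1 core (chr7:93117980-93118129, minus strand): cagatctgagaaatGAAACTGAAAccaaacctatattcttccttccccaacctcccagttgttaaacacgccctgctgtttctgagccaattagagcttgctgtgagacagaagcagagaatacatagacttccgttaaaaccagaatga

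PARP9 and DTX3L, partner proteins of one ADP-ribosylation and ubiquitin ligase complex, are transcribed in opposite directions from 1 region, and the sequence shows that they share a single ISRE core at chr3:122564332-122564341.

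PARP9, the window of its 2 that holds the core (chr3:122564301-122564450, minus strand): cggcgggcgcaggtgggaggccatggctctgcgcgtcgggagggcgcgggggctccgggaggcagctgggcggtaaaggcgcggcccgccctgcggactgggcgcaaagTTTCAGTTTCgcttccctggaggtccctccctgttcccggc
DTX3L (chr3:122564188-122564341, plus strand): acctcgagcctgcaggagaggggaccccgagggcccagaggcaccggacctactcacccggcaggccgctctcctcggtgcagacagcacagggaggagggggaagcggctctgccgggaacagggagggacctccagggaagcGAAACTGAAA

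A few genes carried most of the set's resting level in the first experiment. In its Puro libraries the summed level of the 36 members was 41.5 CPM per kb, and the 5 highest members made up 75.5% of it, against 56.3% in the second experiment and 32.8% in the third. In the first experiment IFIT5, which binds triphosphate and other RNA ends, stood first at 14.99 ± 0.538 CPM per kb (SD, n = 3), above 93.9% of all Ensembl genes. IFI6, a mitochondrial and endoplasmic reticulum protein, followed at 6.53 ± 0.856. OAS3, an enzyme that makes the activator of RNase L, was at 4.71 ± 0.0804, and STAT2 was at 2.99 ± 0.150. The order of these genes was clear of their spread. IRF1 (2.15 ± 0.0676), DTX3L (2.10 ± 0.0117) and UBE2L6 (2.09 ± 0.0147), which come next, lay within each other's spread. IRF7 (0.983 ± 0.143), IFIT2 (0.939 ± 0.200) and PARP9 (0.889 ± 0.114) likewise did not separate.

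**Figure D1:**
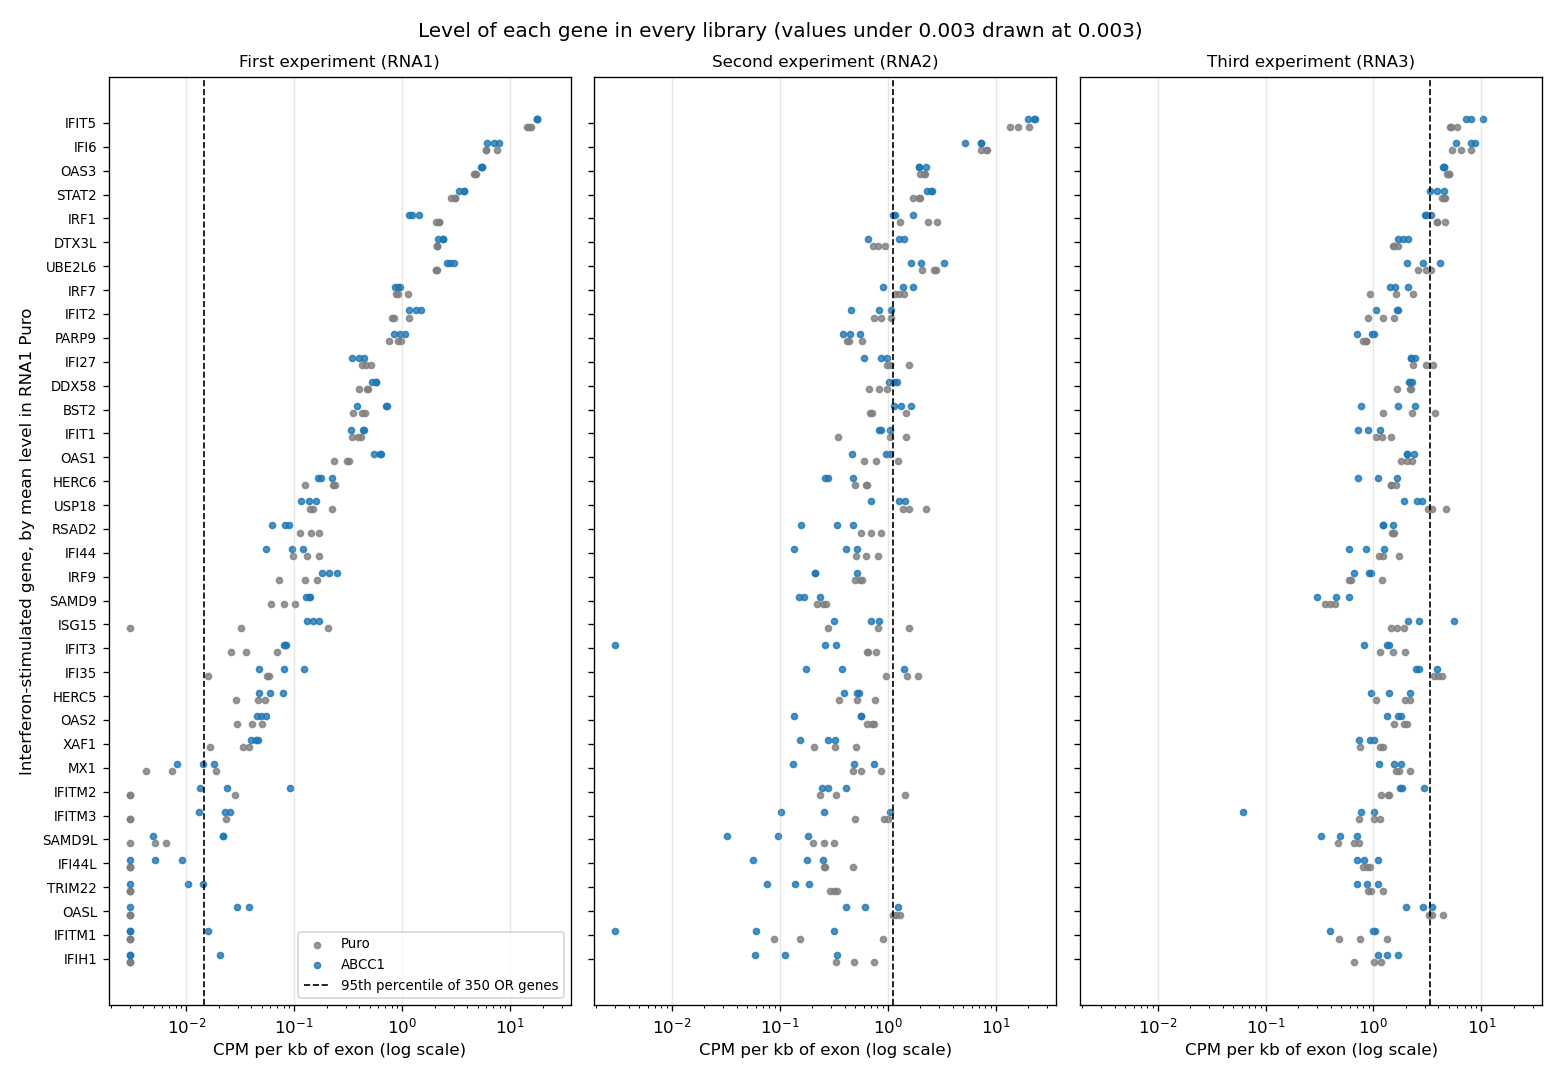
Level of each of the 36 members in every library, as CPM per kb of exon on a log axis, with 1 panel per experiment, Puro libraries in grey and ABCC1 libraries in blue; the dashed line is the 95th percentile of the 350 olfactory receptor (OR) genes. The line moves from 0.0146 in the first experiment to 1.11 in the second and 3.36 in the third, and 28, 9 and 6 members lie above it by their mean. In the first experiment the line is so low that a few reads pass it, as for ISG15 and IFITM2. The 3 numbers are therefore not like counts of expressed genes.

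Several of the best known interferon-stimulated genes were nearly silent in the same libraries. ISG15, the ubiquitin-like modifier, had 1, 4 and 0 counts in the Puro libraries and 6, 3 and 7 in the ABCC1 libraries of the first experiment. MX1, the dynamin-like antiviral GTPase, had 7, 1 and 2 counts in Puro and 4, 4 and 9 in ABCC1. OASL, IFIH1 (the RNA sensor MDA5), IFITM1 and TRIM22 had 0 counts in every Puro library, which allows up to 3 counts per library. In all, 10 of the 36 members had at most 10 counts in every library of the first experiment, among them also IFITM2, IFITM3, IFI44L and SAMD9L. IFITM1 and IFITM2 share 32.5% and 26.9% of their exon bases with each other, so reads there could not be assigned to 1 of the pair. The remaining members were IFI27, DDX58 (the RNA sensor RIG-I), BST2 (tetherin), IFIT1, OAS1, HERC6, USP18, RSAD2, IFI44, IRF9, SAMD9, IFIT3, IFI35, HERC5, OAS2 and XAF1, with mean Puro levels from 0.468 down to 0.0293 CPM per kb. That range also holds the level of ISG15, 0.0796 CPM per kb. Since USP18 has a near-identical copy, USP41, its reads are also uncertain.

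In the later experiments most members could not be told from background reads. Only 9 members were above it in the second experiment, namely IFIT5, IFI6, UBE2L6, IRF1, OAS3, STAT2, USP18, IRF7 and BST2, and 6 in the third, namely IFI6, IFIT5, OAS3, STAT2, IRF1 and IFI35. The 5 members above background in all 3 experiments were IFIT5, IFI6, OAS3, STAT2 and IRF1, which are the 5 highest of the first. MX1 was near the mean of the olfactory receptor genes in each experiment. Its mean Puro level was 0.0101 CPM per kb in the first experiment, 0.632 in the second and 1.83 in the third, or 1.98, 1.09 and 1.16 times the mean of the olfactory receptor genes. IFIT5 was at 16.7 ± 3.48 CPM per kb in the Puro libraries of the second experiment and at 5.46 ± 0.440 in those of the third. Differences in level between the first experiment and the later ones cannot be told apart from kit and instrument. The second and the third shared both by the study's methods, but differed in cells and in background reads. Levels were not tested between experiments and are given as a description.

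The first experiment asked whether ABCC1 overexpression was accompanied by other transcript levels under the mRNA kit. Of the 36 members, 23 had enough reads to be tested, and 10 differed at an adjusted p of at most 0.05 (edgeR's quasi-likelihood test, adjusted by the Benjamini-Hochberg method over all genes tested). These are 43.5% of the members tested, beside 37.6% of all 16995 genes tested, so members were called about as often as genes in general. The higher calls numbered 8 of the 23 (34.8%, with 17.9% over all genes) and the lower calls 2 (8.7%, with 19.7% over all genes). At the study's threshold, an adjusted p of at most 0.001, 2 members were called, OAS1 and IRF1 (11.8% of all genes). The median log2FC (ABCC1 minus Puro) of the 23 members was 0.21, with 0.01 over all genes, and the members ranged from -0.90 to 1.06. The 6 libraries of the 2 lines did not overlap for 10 members that were higher and 2 that were lower with ABCC1, where 24.7% and 25.7% of all genes did so. The changes were small. A single called member, OAS1, reached a fold of 2.

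Of the OAS family, whose enzymes make the activator of RNase L, OAS1 and OAS3 rose with ABCC1 in the first experiment. OAS1 (ENSG00000089127, chr12:113344582-113369990, GRCh37) had 53, 25 and 40 counts in the Puro libraries and 142, 70 and 143 in the ABCC1 libraries. Its mean went from 1.14 ± 0.190 to 2.38 ± 0.185 CPM (SD, n = 3). No ABCC1 library reached down to a Puro library, and the log2FC was 1.06 ± 0.154 (SE; edgeR adjusted p = 0.000369), a fold of 2.09. OAS3 (ENSG00000111331, chr12:113376157-113411054), the neighbouring gene and the most expressed of the family, had 1660, 1059 and 1245 counts in Puro and 2539, 1418 and 2631 in ABCC1. At 38.9 ± 0.664 against 44.7 ± 0.719 CPM its groups also did not overlap, and its log2FC was 0.20 ± 0.0459 (adjusted p = 0.00532). OAS2 was low in both lines, at 0.253 and 0.313 CPM, and was not called (log2FC 0.35, adjusted p = 0.439). OASL, with 5, 0 and 4 counts in ABCC1 and none in Puro, was not tested.

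The IFIT genes lie side by side on chromosome 10 and encode RNA-binding proteins that block translation of foreign RNA. IFIT5 (ENSG00000152778, chr10:91174343-91180758) had 2633, 1692 and 1824 counts in the Puro libraries and 4005, 2305 and 4127 in the ABCC1 libraries. Scaled for depth, these are 60.2 ± 2.16 and 71.1 ± 0.311 CPM, and the groups did not overlap. The log2FC was 0.24 ± 0.0438 (adjusted p = 0.00149), a fold of 1.18. IFIT2 (ENSG00000119922, chr10:91061712-91069033) had 122, 111 and 93 counts in Puro and 295, 152 and 235 in ABCC1. The CPM of IFIT2, 3.28 ± 0.696 and 4.66 ± 0.584, overlapped between the lines, with a log2FC of 0.53 ± 0.152 (adjusted p = 0.0187). That call was lost without Puro replicate 1 (0.41, adjusted p = 0.105), Puro replicate 3 (0.47, 0.0789) or ABCC1 replicate 1 (0.43, 0.065). IFIT1 was level within its spread, at 1.18 ± 0.109 and 1.24 ± 0.180 CPM (log2FC 0.07, adjusted p = 0.791), and IFIT3 had too few reads to be tested. The spans of IFIT1, IFIT2 and IFIT3 overlap that of LIPA, with no exon bases shared, and a part of LIPA reads in their counts was not tested.

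The transcription factors of the set went in different directions. IRF1 (ENSG00000125347, chr5:131817301-131826490), which acts in the gamma interferon response, fell. It had 705, 462 and 543 counts in Puro and 546, 289 and 653 in ABCC1, going from 16.8 ± 0.528 to 9.96 ± 1.18 CPM. All ABCC1 libraries were below all Puro libraries, and the log2FC was -0.74 ± 0.0859 (adjusted p = 7.95e-05), the smallest adjusted p among the members. STAT2 (ENSG00000170581, chr12:56735381-56753939), a subunit of ISGF3, rose, with 748, 513 and 590 counts in Puro and 1285, 736 and 1191 in ABCC1. Its groups did not overlap, at 18.3 ± 0.914 and 22.02 ± 1.29 CPM, and the log2FC was 0.27 ± 0.0674 (adjusted p = 0.00906, and 0.0503 with a log2FC of 0.22 without Puro replicate 1). IRF9 (ENSG00000213928, chr14:24630262-24635774), the DNA-binding subunit of ISGF3, had 12, 17 and 15 counts in Puro and 39, 26 and 55 in ABCC1. Its log2FC was 0.91 ± 0.290 (adjusted p = 0.0305), and 48.4% of its exon bases are shared with the gene ENSG00000259529, so its reads are uncertain. The IRF9 call was lost without Puro replicate 1 (0.57, adjusted p = 0.156), Puro replicate 3 (0.97, 0.0704) or ABCC1 replicate 3 (0.76, 0.0578). IRF7, the amplifying factor of alpha interferon genes, was at 2.58 ± 0.375 and 2.40 ± 0.136 CPM and was not called (log2FC -0.13, adjusted p = 0.496).

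Among the remaining effectors of the first experiment, UBE2L6, RSAD2 and SAMD9 were called. UBE2L6 (ENSG00000156587, chr11:57319129-57335757), the conjugating enzyme for ISG15, had 199, 126 and 144 counts in Puro and 327, 197 and 384 in ABCC1. Its groups did not overlap, at 4.59 ± 0.0324 and 6.17 ± 0.423 CPM, and the log2FC was 0.43 ± 0.0911 (adjusted p = 0.0039). Its substrate ISG15 was nearly silent, as given above, and the ISG15 protease USP18 was not called (log2FC -0.24, adjusted p = 0.597), nor was HERC6 (-0.05, 0.89). RSAD2 (ENSG00000134321, chr2:7005937-7038370), also known as viperin, fell, with 30, 15 and 26 counts in Puro and 17, 14 and 23 in ABCC1. Its groups did not overlap once scaled for depth, at 0.688 ± 0.137 and 0.377 ± 0.0688 CPM, and the log2FC was -0.90 ± 0.256 (adjusted p = 0.0177). Without Puro replicate 1, Puro replicate 3 or ABCC1 replicate 1 the log2FC of RSAD2 was -0.91, -0.77 and -0.75, with adjusted p-values of 0.0571, 0.0844 and 0.0705. The span of RSAD2 overlaps that of CMPK2, with no exon bases shared, and reads were counted without strand. Whether reads of CMPK2 were counted for RSAD2 was not tested. SAMD9 (ENSG00000205413, chr7:92728829-92747336), a restriction factor of poxviruses, had 18, 15 and 22 counts in Puro and 50, 31 and 54 in ABCC1, with a log2FC of 0.76 ± 0.225 (adjusted p = 0.021). The SAMD9 call was lost without Puro replicate 1 (0.54, adjusted p = 0.109) or Puro replicate 2 (0.78, 0.0552). The members tested and not called otherwise were IFI6, IFI27, IFI44, DDX58, BST2, XAF1, PARP9 and DTX3L, whose adjusted p-values ran from 0.066 for DDX58 (log2FC 0.32) to 0.618 for PARP9 (log2FC 0.08).

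A fit with the olfactory receptor reads of each library as a covariate, and a fit with a spread shared by all 18 libraries, each called 2 members in the first experiment instead of 10. All genes lost calls as well, to 7.37% of those tested in the former and 11.6% in the latter. The members called were IFIT2 and IRF1 in the former and OAS1 and IRF1 in the latter. The covariate rested on 47 to 96 olfactory receptor reads per library and followed the line (correlation -0.845). The covariate and the line therefore cannot be told apart in this experiment. Among the members not called above, XAF1 (-0.10), USP18 (0.41) and PARP9 (-0.19) changed sign with the covariate. The log2FC values of the 10 members called above kept their direction in both fits. With the shared spread they stayed close to those above, from 1.05 for OAS1 to -0.89 for RSAD2. With the covariate OAS1 was at 1.01 (adjusted p = 0.0742), IFIT5 at 0.30 (0.0887) and OAS3 at 0.21 (0.234), while IFIT2 moved to 0.98 (0.0425) and RSAD2 to -1.58 (0.0568). IRF1 remained called under both, with a largest adjusted p of 0.0385 over the 14 alternatives run.

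**Figure D2:**
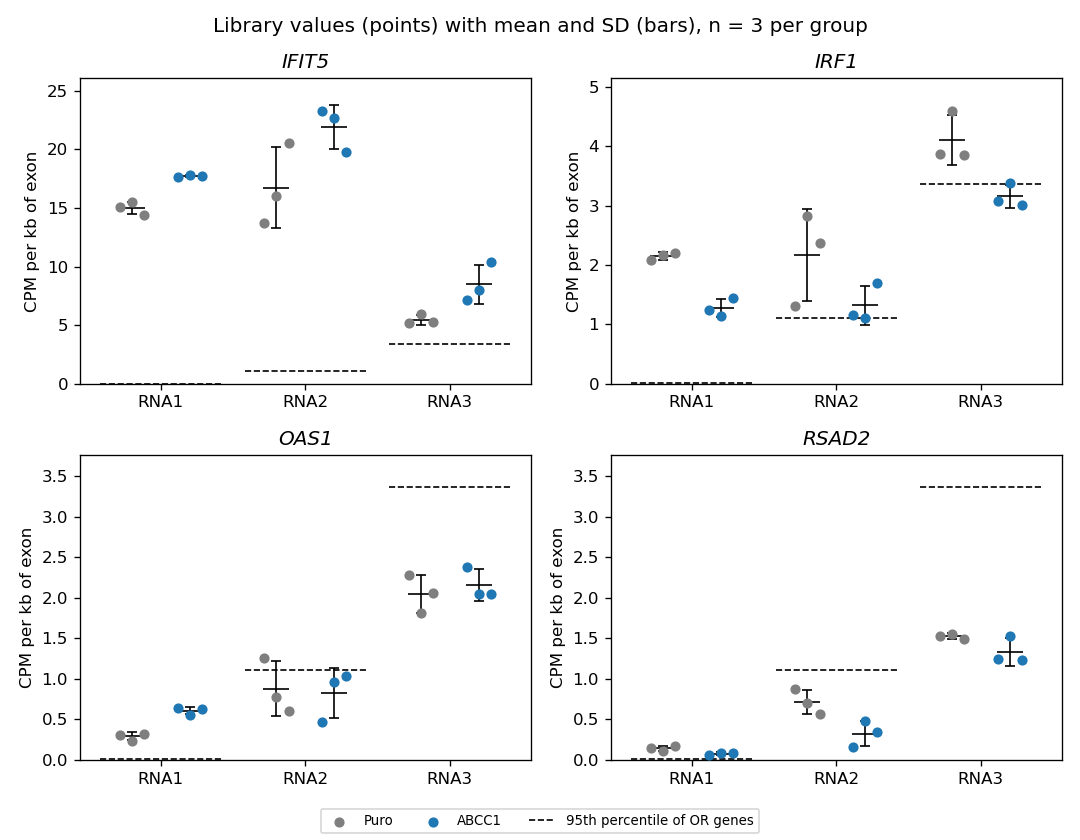
Level of IFIT5, IRF1, OAS1 and RSAD2 in each library of the 3 experiments, in CPM per kb of exon, with the mean and SD of each group of 3 as bars and the 95th percentile of the olfactory receptor (OR) genes as a dashed line. The IFIT5 libraries lie above the dashed line in every experiment, while OAS1 and RSAD2 lie above it in the first and have their group means below it in the second and the third. The group means of IRF1 lie above it, except that of the ABCC1 libraries in the third experiment.

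In the second experiment, under the total RNA kit, no member of the set was called. Of the 35 members tested, 0 passed an adjusted p of 0.05 with edgeR and 0 with DESeq2, where edgeR called 1.7% of all 34091 genes (1.25% higher and 0.458% lower), and 9 had an unadjusted p under 0.05, as did 7243 of the 34091 genes. The median log2FC of the members was -0.51, with -0.19 over all genes tested and -0.93 over the 174 olfactory receptor genes tested. RLE size factors in place of TMM moved the log2FC of the median gene by 0.106, so the directions here are relative. The 9 members above background had a median log2FC of -0.05, and the 26 tested members at background had one of -0.70, with 24 of these 26 below 0. With the olfactory receptor reads as a covariate 14 of the 26 members at background were below 0, with a median of -0.05, and the 9 above background had one of 0.02. Single members went both ways. RSAD2 went to -0.31 (adjusted p = 0.974) and IFIT3 to 0.14 (0.992), OAS1 to 0.80 (0.893) and UBE2L6, above background, to -0.76 (0.851). Since these reads were lower in the ABCC1 line, the covariate and the line cannot be told apart in this experiment. ABCC1 replicate 1 had the lowest background of the experiment, 0.140 CPM per kb on the olfactory receptor genes, where the other ABCC1 libraries had 0.340 and 0.431. Without it the number of members called was still 0. The number was 1 (IRF1) without Puro replicate 1 and 2 (IRF1 and IFIH1) without ABCC1 replicate 3.

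The best measured members of the second experiment were IFIT5, STAT2, IRF1 and OAS3. IFIT5 had 1243, 1919 and 1712 counts in Puro and 2446, 1986 and 2456 in ABCC1, or 67.2 ± 13.99 and 87.9 ± 7.59 CPM. The lines overlapped, and the log2FC was 0.39 ± 0.174 (edgeR adjusted p = 0.204). STAT2 had 269, 366 and 218 counts in Puro and 411, 338 and 441 in ABCC1. The STAT2 groups did not overlap (13.5% of all genes were higher without overlap), at 11.6 ± 0.924 and 15.1 ± 0.795 CPM, with a log2FC of 0.39 ± 0.172 (adjusted p = 0.198). IRF1 had 231, 659 and 384 counts in Puro and 237, 189 and 410 in ABCC1, a wide spread of 16.9 ± 6.07 against 10.3 ± 2.53 CPM. Puro replicate 1 lay among the ABCC1 libraries, and the log2FC of IRF1 was -0.71 ± 0.229 (adjusted p = 0.0919). Without that library it was -0.95 (adjusted p = 0.039), without ABCC1 replicate 3 it was -0.90 (0.0441), and without Puro replicate 2, the highest, it was -0.46 (0.317). The level of IRF1 per kb was 3.7 (Puro) and 4.4 (ABCC1) times the mean of the olfactory receptor genes in the same lines. OAS3 had 410, 535 and 342 counts in Puro and 419, 347 and 579 in ABCC1, which overlapped (log2FC -0.05 ± 0.164, adjusted p = 0.872).

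Of the other members called in the first experiment, UBE2L6 was above background in the second and the rest were at background. RSAD2 had 95, 102 and 57 counts in Puro and 20, 50 and 51 in ABCC1, with no overlap (16.4% of all genes were lower without overlap) and a log2FC of -1.14 ± 0.454 (edgeR adjusted p = 0.155), against -0.31 in the covariate fit. Its level, 0.714 and 0.324 CPM per kb, was 1.23 and 1.07 times the mean of the olfactory receptor genes in the same lines. OAS1 had 111, 90 and 49 counts in Puro and 48, 82 and 126 in ABCC1 (log2FC -0.09 ± 0.404, adjusted p = 0.916). UBE2L6 had 132, 135 and 128 counts in Puro and 191, 98 and 112 in ABCC1 (log2FC -0.10 ± 0.311, adjusted p = 0.874). Both overlapped between the lines. IFIT2 had 59, 112 and 63 counts in Puro and 75, 35 and 116 in ABCC1 (log2FC -0.19 ± 0.407, adjusted p = 0.811). IRF9 had 47, 66 and 39 counts in Puro and 21, 43 and 25 in ABCC1 (log2FC -0.80 ± 0.522, adjusted p = 0.377), and was at -1.34 without ABCC1 replicate 2. SAMD9, with 39, 45 and 38 counts in Puro and 27, 25 and 50 in ABCC1, had the lowest Puro level of the set per kb of exon (log2FC -0.41 ± 0.513, adjusted p = 0.661). The most negative log2FC, -1.80 ± 0.750 (adjusted p = 0.173), belonged to IFIT3, whose counts were 38, 52 and 43 in Puro and 0, 15 and 27 in ABCC1, at background in both lines.

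In the third experiment 1 member, IFIT5, was called among the 36 tested, where 2.8% of all 36509 genes tested were called (2.03% higher and 0.767% lower). IFIT5 had 228, 264 and 202 counts in Puro and 335, 374 and 504 in ABCC1, equal to 21.9 ± 1.77 and 34.1 ± 6.71 CPM. All ABCC1 libraries were above all Puro libraries, and ABCC1 replicate 3 was the highest. The log2FC was 0.64 ± 0.166 (edgeR adjusted p = 0.0138), a fold of 1.56. The call was lost without that library (0.48, adjusted p = 0.292), without Puro replicate 1 (0.63, 0.0878) or without Puro replicate 3 (0.64, 0.0779), and in the covariate fit (0.31, 0.61). The covariate followed the line in this experiment too (correlation -0.747), so the covariate and the line cannot be told apart. The median log2FC of the 36 members was -0.19, with -0.09 over all genes tested and -0.32 over the 256 olfactory receptor genes tested. The 6 members above background had a median of -0.17 and the 30 at background one of -0.19, so the split by level seen in the second experiment was not seen here. Of all calls in this experiment 72.6% were higher with ABCC1, and with RLE size factors 82.9% were.

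IRF1 was lower in the third experiment too, with 332, 395 and 289 counts in Puro and 281, 307 and 285 in ABCC1. At 32.1 ± 3.27 and 24.6 ± 1.53 CPM its groups did not overlap (10.9% of all genes were lower without overlap), and the log2FC was -0.38 ± 0.162 (edgeR adjusted p = 0.218). Its level, 4.11 and 3.16 CPM per kb, was 2.6 and 2.5 times the mean of the olfactory receptor genes in the same lines. The ABCC1 mean was below their 95th percentile, 3.36. STAT2 had 302, 293 and 268 counts in Puro and 239, 277 and 330 in ABCC1, which overlapped (log2FC -0.20 ± 0.164, adjusted p = 0.618). OAS3 had 453, 458 and 380 counts in Puro and 424, 431 and 454 in ABCC1 (log2FC -0.14 ± 0.159, adjusted p = 0.724), and here every ABCC1 library was lower once scaled for depth. OAS1, with 98, 78 and 77 counts in Puro and 109, 93 and 97 in ABCC1, overlapped between the lines (log2FC 0.08 ± 0.235, adjusted p = 0.918). RSAD2 had 81, 83 and 69 counts in Puro and 70, 86 and 72 in ABCC1 (log2FC -0.19 ± 0.254, adjusted p = 0.777). Both were below the 95th percentile of the olfactory receptor genes.

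The other members called in the first experiment were also at background in the third, and none of their groups was free of overlap. IFIT2 had 60, 34 and 41 counts in Puro and 67, 43 and 72 in ABCC1 (log2FC 0.26 ± 0.307, edgeR adjusted p = 0.747). UBE2L6 had 74, 83 and 55 counts in Puro and 74, 105 and 54 in ABCC1 (log2FC -0.02 ± 0.265, adjusted p = 0.984). IRF9 had 26, 25 and 44 counts in Puro and 40, 29 and 44 in ABCC1 (log2FC 0.06 ± 0.365, adjusted p = 0.961). SAMD9, again the lowest member per kb of exon, had 27, 30 and 29 counts in Puro and 48, 36 and 25 in ABCC1 (log2FC 0.17 ± 0.373, adjusted p = 0.875). ISG15 had the largest log2FC of the third experiment, 1.01 ± 0.475 (adjusted p = 0.277), from 15, 13 and 10 counts in Puro and 46, 22 and 18 in ABCC1. Its groups did not overlap (8.59% of all genes were higher without overlap), and its level was at background.

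**Figure D3:**
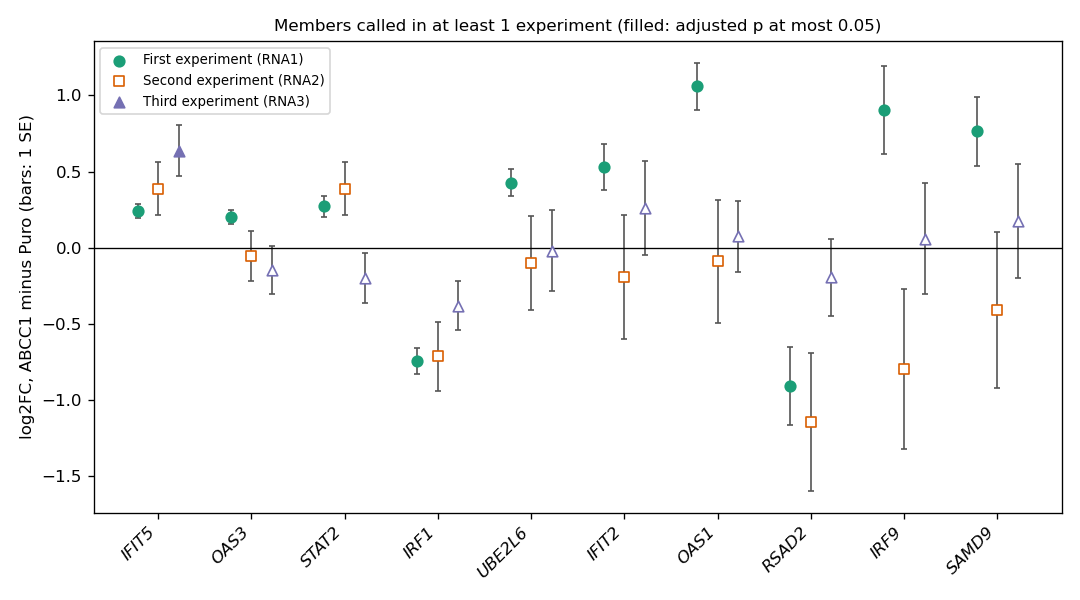
The log2FC (ABCC1 minus Puro) of the 10 members called in at least 1 experiment, with 1 SE as bars; circles are the first, squares the second and triangles the third experiment, and filled symbols mark an adjusted p of at most 0.05. IFIT5 lies above 0 and IRF1 and RSAD2 below 0 in all 3 experiments, though the bar of RSAD2 reaches 0 in the third; the bars of OAS1, OAS3 and UBE2L6 reach 0 in the second and the third.

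**Figure D4:**
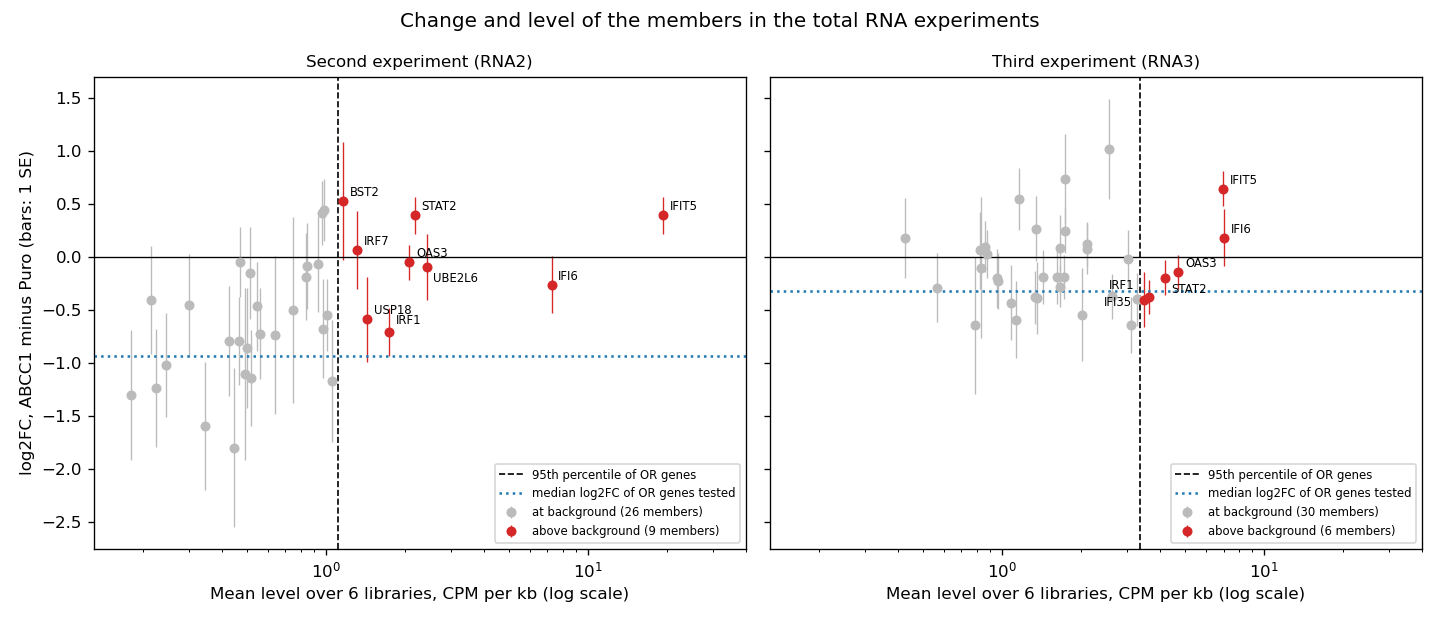
The log2FC of the members tested against their mean level over the 6 libraries (CPM per kb, log axis) in the second and the third experiments, with 1 SE as bars; red members are above and grey members below the 95th percentile of the olfactory receptor (OR) genes, and the dotted line is the median log2FC of those genes. In the second experiment the grey members centre on -0.70, near the dotted line at -0.93, and the red members on -0.05; in the third both centre near each other, on -0.19 and -0.17, with the dotted line at -0.32.

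The 18 libraries were then fitted together to ask which differences the experiments shared. Of the 36 members, 3 had a common effect of ABCC1 at an adjusted p of at most 0.05, beside 12.4% of all 46225 genes tested, 8.72% higher and 3.72% lower. IFIT5 was higher, with a common log2FC of 0.48 ± 0.0950 (SE; edgeR adjusted p = 0.000286). IRF1 was lower, with -0.55 ± 0.112 (adjusted p = 0.000406). RSAD2 was lower, with -0.66 ± 0.215 (adjusted p = 0.0333). IFIT5 and IRF1 remained called in all 22 alternatives run on this fit, with common log2FC values from 0.28 to 0.54 and from -0.72 to -0.46. These were DESeq2, RLE size factors, a stricter count filter, the replicate number as a block and each library left out. The background covariate, which took calls away within the experiments, was not run on the joint fit. RSAD2 lost its call without any 1 of 7 libraries, among them ABCC1 replicate 1 of the second experiment (-0.52, adjusted p = 0.0712) and Puro replicate 1 of the first (-0.64, 0.0532), and its level was at background in the later experiments.

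The differences between the experiments were tested by the interaction of experiment and line. None of the 36 members differed at an adjusted p of at most 0.05 (551 genes, or 1.19% of all, did). An unadjusted p under 0.05 was seen for 11, but the share of all genes under that cut was not computed, so this count has no reference. The smallest adjusted p was 0.105 for IFIH1, which had reads in a single library of the first experiment and was at background in the later ones. With ABCC1 replicate 3 of the second experiment left out 4 members passed, with 2.31% of all genes, and with ABCC1 replicate 2 left out 1 did, with 1.14% of all genes. OAS1, called in the first experiment only, had an effect 1.24 lower on the log2 scale in the second experiment than in the first and 1.01 lower in the third (edgeR adjusted p of the difference 0.289). Of the 23 members tested in every experiment, 3 were above 0 in all 3, namely IFIT5, DDX58 and DTX3L. A further 6 were below 0 in all 3, namely IRF1, RSAD2, IFI27, IFI44, USP18 and HERC6, and the other 14 changed sign.

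The other genes of the pathway were called about as often as genes in general in the first experiment. Of 82 further genes (ligands, receptors, kinases and factors, sensors and adaptors, inhibitors and other induced genes), 49 were tested in the first experiment, where 12 were higher and 7 lower (17.9% and 19.7% of all genes were). By role, 2 of 8 sensors and adaptors tested were higher, none of 4 inhibitors was called (1 at an unadjusted p under 0.05), and of 22 other induced genes 7 were higher and 5 lower. In the second experiment 1 of 65 was called (1.7% of all genes) and in the third 2 of 68 (2.8% of all genes), all higher. In the joint fit 12 of 81 were higher and 8 lower, where 8.72% and 3.72% of all genes were. The receptor chain IFNAR1 had 4312, 2683 and 3110 counts in Puro and 5160, 2875 and 4823 in ABCC1 in the first experiment and was lower there (log2FC -0.17 ± 0.0448, edgeR adjusted p = 0.0126). It was at 0.28 ± 0.153 in the second (adjusted p = 0.294) and 0.10 ± 0.163 in the third (0.822). IFNAR2 was not called, at -0.12, 0.30 and 0.07 in the first, the second and the third experiment (smallest adjusted p = 0.268). Of the receptors named only after their values were seen, IFNGR2 (0.14, adjusted p = 0.0399) and IFNLR1 (-0.48, 0.00202) were called in the first experiment, and IFNGR1 was higher in the third (0.68 ± 0.165, 0.00723).

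The receptor kinases JAK1 and TYK2 were not called in any experiment. JAK1 was at -0.01, 0.34 and -0.09 and TYK2 at 0.03, 0.17 and 0.13 in the 3 experiments, with edgeR adjusted p-values from 0.275 to 0.85. Both kinases were well expressed, with 2635 or more counts of JAK1 and 3117 or more of TYK2 in every library of the first experiment. The DNA sensor IFI16, picked out after its values were seen, was the only gene of these lists called in every experiment. Its counts in the first were 2442, 1620 and 1929 in Puro and 5587, 3145 and 5263 in ABCC1 (log2FC 0.70 ± 0.0508, adjusted p = 2.8e-06). The lines did not overlap in the second (0.76 ± 0.168, 0.0254) or the third experiment (0.61 ± 0.164, 0.0193) either.

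The interferon genes themselves were nearly without reads. In the first experiment 21 of the 22 ligands had at most 6 counts in any library, and 15 of these had 0 in all 6. The exception, named after its values were seen, was IFNL2, a lambda interferon (ENSG00000183709, chr19:39759154-39760732, GRCh37), with 0 counts in every Puro library and 25, 14 and 24 in the ABCC1 libraries. At 0.430 ± 0.0146 CPM (SD, n = 3) it was at least 4.7-fold higher than the 3 counts per library that a count of 0 allows. It passed the count filter of the first experiment through the ABCC1 libraries alone, so no test that uses these libraries is given for it. Its near-identical neighbour IFNL3 had 0 counts in all 6 libraries, and reads of the pair could be split between them. In the second and the third experiments IFNL2 had 46, 36 and 14 counts in Puro with 10, 11 and 9 in ABCC1, and 30, 16 and 23 in Puro with 27, 34 and 48 in ABCC1, where other ligands such as IFNL1 also had up to 53 counts in a library.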

How the data were processed

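RNA of 18 BE(2)-m17 libraries was sequenced, 3 per line in each of 3 experiments. The authors aligned read pairs with STAR 2.7.3a to GRCh37 with spike-in and vector sequences and counted them per gene without strand (featureCounts, Subread 2.0.0); the deposited values are raw counts. Groups were taken from the sample titles and characteristics. From these counts, TMM-scaled CPM and CPM per kb of exon were computed. ABCC1 and Puro libraries were compared within each experiment with edgeR 4.0.16 (quasi-likelihood, robust, two-sided; R 4.3.3) on genes kept at a minimum count of 10, with Benjamini-Hochberg adjustment over all Ensembl genes tested and a threshold of 0.05. The 18 libraries were also fitted together for the common effect and the interaction. An exact permutation test of 3 against 3 cannot go below 0.1 and was not used. Counts, tests and standard errors are given for members called in at least 1 experiment, the others by level, range and count. Results for some genes of the lists are not reported here. Symbols came from RefSeq for 51996 genes. The members and gene lists were chosen with earlier results of these data known. Alternatives were DESeq2 1.42.0, limma-voom (limma 3.58.1), RLE size factors, other count filters, the replicate number as a block, a shared spread, a background covariate and each library left out. On simulated data with 200 changed genes at an absolute log2FC of 1.5, 100% were recovered in the first experiment (17035 genes), 66% in the second (33373) and 85.5% in the third (36281). The changed genes were drawn from the better counted genes, and every called member changed by less than 1.5. These rates therefore do not carry over to the members. Libraries of a group differed by more than sampling noise, with chi-square per degree of freedom from 1.49 to 22.7. Depth was 8866994 to 57937653 assigned read pairs per library, and the limit of 3 counts that a count of 0 allows covers counting error only.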

Additional observations from a re-analysis of the deposited data

Results flagged for a closer look

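The effect of ABCC1 on IFNL2 differed between the experiments by the test of the interaction itself (edgeR adjusted p = 9.5e-06), a gene picked out after its values were seen. Its reads were in the 3 ABCC1 libraries and in none of the 3 Puro libraries of the first experiment, lower in every ABCC1 library of the second (log2FC -1.73 ± 0.698, adjusted p = 0.161) and overlapping in the third (0.48 ± 0.393, 0.609). In the later experiments the near-identical IFNL3 also had reads, between 2 and 43 per library.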

How the results depend on the processing

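In the first experiment the 10 members called became 2 with a spread shared by all libraries and 2 with the background covariate, and 7 with DESeq2, which did not call IRF9, RSAD2 and SAMD9; leaving out 1 library gave 5 to 12. In the second experiment 0 became 5, all lower (IFIT3, IRF1, IFIH1, RSAD2 and TRIM22), with the shared spread, and 0 to 2 with a library left out. In the third experiment 1 became 0 with the covariate, and 0 to 1 with a library left out. For the common effect 3 became 6 with DESeq2 (IFI27, IFI44 and USP18 added, all lower) and 5 with at least 10 counts in every library (IFI27 and HERC6 added, both lower), and 2 to 5 with a library left out. For the difference between experiments the count was 0 to 4 with a library left out. RLE size factors moved the number of all genes called in the second experiment from 581 to 1086 and the number of members called from 0 to 0. The causes were not tested.

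Small log2FC values that were not called changed sign. OAS1 in the second experiment was at 0.0131 with DESeq2, 0.0131 with RLE size factors and 0.80 with the covariate, and -0.28 to 0.28 with a library left out. OAS3 there was at 0.0553 with DESeq2, 0.0553 with RLE size factors, 0.0032 with no filter and 0.0665 with the covariate. UBE2L6 there was at 0.0325 with DESeq2 and 0.0324 with RLE size factors, and -0.43 to 0.14 with a library left out, and IFIT2 at -0.45 to 0.0883. In the third experiment UBE2L6 was at 0.0443 with DESeq2, 0.0431 with RLE size factors, 0.0163 with at least 10 counts in every library and 0.0401 with the shared spread, and -0.30 to 0.21 with a library left out. IRF9 was then at -0.11 to 0.48 and SAMD9 at -0.0349 to 0.40. Of 486 values of named members under an alternative, 413 kept direction and side of the threshold.

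Replicate numbers did not pair the libraries: same-numbered libraries deviated together with a correlation of -0.149 to 0.098. Taking that number as a replicate block, the test called 10, 0 and 1 members in the 3 experiments, 2 for the common effect (RSAD2 was at -0.68, adjusted p = 0.073) and 0 for the difference. The standard errors of IFIT3 and RSAD2, both at background, were wider in the second experiment than in the third (0.750 and 0.342 for IFIT3, 0.454 and 0.254 for RSAD2), though the third has the shallowest libraries.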
